A study of Mus musculus with 8 samples.

Results

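The 9 genes described here are 7 Frizzled receptors (Fzd1, Fzd2, Fzd4, Fzd5, Fzd6, Fzd7 and Fzd8) and the Wnt co-receptors Lrp5 and Lrp6, out of 18820 genes measured in adipose tissue macrophages (ATMs). They were chosen by gene symbol with the differences between ATMs from high-fat diet (HFD)-fed and low-fat diet (LFD)-fed mice already known, so those differences are given as a description without a test. ATMs were isolated with magnetic beads against the macrophage surface protein that Adgre1 encodes, from epididymal adipose tissue of male wildtype C57Bl/6 mice in 4 experiments. Each experiment gave an obese (HFD-fed) and a lean (LFD-fed) pool of animals, with 1 array a pool. Both diets used lard. Fat supplied 45% of HFD energy in experiments 1 and 3, 60% in experiments 2 and 4, and 10% of LFD energy throughout, and the diets lasted 16, 15, 16 and 10 weeks in experiments 1, 2, 3 and 4. All levels are log2 values from Affymetrix arrays, so a difference of 1 is a doubling on the array's scale, and the number of arrays limits the precision. Levels of different genes come from different probes and are not set against each other. In place of a detection call, a level under 4.32 (an intensity of 20) is called dim.

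Frizzled proteins span the membrane 7 times and bind Wnt ligands, which are secreted lipid-modified glycoproteins, through a cysteine-rich domain outside the cell. Together with Lrp5 or Lrp6 they recruit Dishevelled and Axin, so that beta-catenin escapes degradation and acts with TCF and LEF factors in the nucleus. Frizzleds also work without Lrp5 and Lrp6, in signalling that acts through the cytoskeleton, calcium and NFAT. Fzd4 is, in addition, the receptor for Norrin in blood vessels, with Tspan12 as its partner.

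The bead-selected pools differed between experiments in their marker levels. On the lean and obese arrays of experiment 1 Adgre1 stood at 6.54 and 8.58, against 9.95 to 10.95 on the other arrays. The mean of 18 of 18 endothelial markers, among them Pecam1 and Cdh5, was 10.57 and 10.21 on these 2 arrays and lay between 5.70 and 8.99 on the others. Over all experiments that mean ranged from 5.70 to 10.57 in lean and from 7.32 to 10.21 in obese pools. The mean of 9 mural cell markers ranged from 5.15 to 9.39 and from 6.50 to 9.32. That of 9 measured fibroblast markers (of 10) ranged from 5.67 to 7.67 in lean and from 6.79 to 8.42 in obese pools. Means of the adipocyte, mesothelial, T cell, B cell and neutrophil lists stayed under 6 on every array. The mean of 13 macrophage markers ranged from 7.72 to 10.95 in lean and from 8.93 to 10.59 in obese pools. No endothelial, mural, fibroblast, macrophage or adipocyte marker was dim on every array. In RNA from pooled cells, a change in the share of a cell type cannot be told apart from a change in RNA per cell.

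Fzd7 was the member with the clearest difference between the diets. In lean pools it measured 5.99, 6.10, 6.22 and 6.48 in experiments 1, 2, 3 and 4, and in the obese pools of the same experiments 6.79, 7.57, 7.76 and 8.19. Every obese pool lay above every lean pool, and the lean pools lay closer together (6.20 ± 0.21, SD, n = 4 pools) than the obese pools (7.58 ± 0.59, SD, n = 4 pools). The obese pool nearest to the lean pools was that of experiment 1, where Adgre1 was low. The difference within experiments was 0.80, 1.47, 1.54 and 1.72, with a mean of 1.38 ± 0.40 (SD, n = 4 experiments), which is 2.61-fold. With the mean of the endothelial, mural, fibroblast or macrophage markers as a covariate, the difference was 1.35, 1.40, 1.44 and 1.35. Over the 6 arrays of experiments 2, 3 and 4, which share experiments, Pearson's r of Fzd7 was -0.06 with the endothelial and -0.50 with the macrophage mean. Without the 2 arrays farthest from the median endothelial mean, the lean pools of experiments 3 and 4, it was -0.996 and -0.93. This left the lean pool of experiment 2 beside the obese pools of experiments 2, 3 and 4. These 2 values therefore also hold the diet difference of Fzd7. The part of these cell types in the Fzd7 difference was not tested beyond the covariates given.

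The promoter of Fzd7 is shown because Fzd7 differed most between the diets. The sequence is from RefSeq (GRCm38.p6, chr1:59481897-59482196, plus strand), holds 300 bases around the start of the gene, and is written in lower case with motif matches in capitals.
Fzd7: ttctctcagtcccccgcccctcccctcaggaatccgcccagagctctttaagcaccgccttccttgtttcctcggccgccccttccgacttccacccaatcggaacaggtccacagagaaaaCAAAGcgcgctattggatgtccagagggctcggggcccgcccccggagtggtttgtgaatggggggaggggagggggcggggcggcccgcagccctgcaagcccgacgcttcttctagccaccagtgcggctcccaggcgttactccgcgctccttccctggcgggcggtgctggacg
The letters CTTTG, the core of the TCF and LEF motif, were searched on both strands and matched 1 time, on the reverse strand as CAAAG. They occurred in 53.9% of 32851 promoters of this length, so a match is common. The letters TGANTCA (AP-1, in 7.81% of promoters) and CCGGAAG (ETS, in 8.86%) were not found in this window. A match to these letters is a description and not a binding site.

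Fzd1, the closest relative of Fzd7 and Fzd2 within the family, was the other member whose diets did not overlap. It measured 5.83, 5.10, 5.03 and 5.44 in the lean pools of experiments 1, 2, 3 and 4 and 5.85, 6.67, 6.00 and 5.89 in the obese pools. The highest lean pool and the lowest obese pool were both from experiment 1 and differed by 0.02, so the groups were only just apart. The mean level was 5.35 ± 0.37 (SD, n = 4 pools) in lean and 6.10 ± 0.38 (SD, n = 4 pools) in obese pools. The difference within experiments was 0.02, 1.56, 0.96 and 0.45, with a mean of 0.75 ± 0.67 (SD, n = 4 experiments). The fibroblast mean differed by 0.01, 0.82, 1.12 and -0.52 in the same experiments, and with it as a covariate the difference of Fzd1 was 0.64. Fzd2 was dim on all 8 arrays (3.23 to 3.97), and its differences of -0.40, -0.01, -0.16 and -0.14 therefore lay within dim signal. Whether probes of these 3 related genes share signal was not tested.

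**Figure D1:**
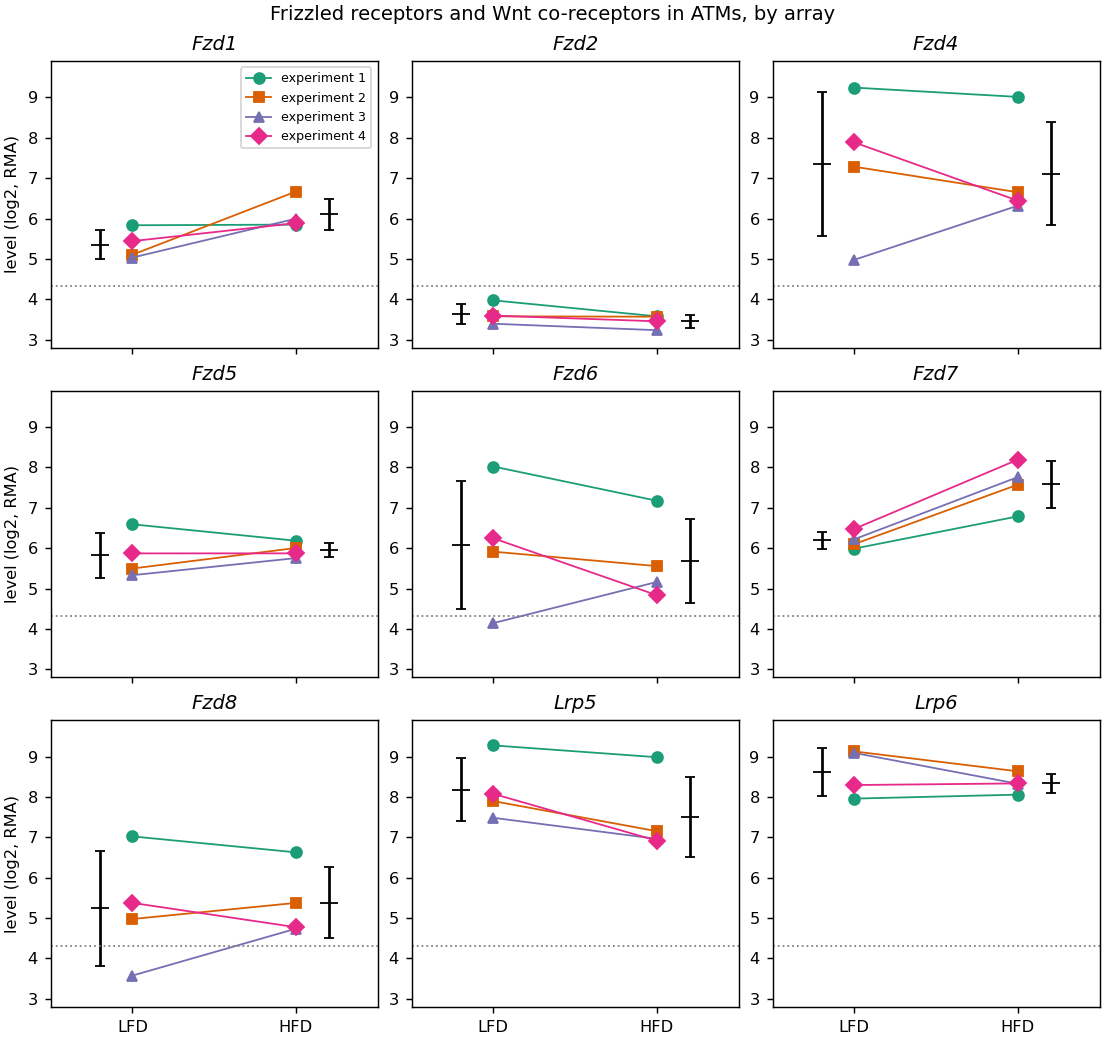
Levels of the 9 members (log2, vertical axis) on LFD and HFD arrays. Lines join the 2 arrays of an experiment, black bars are means ± SD of 4 pools, and the dotted line is the dim limit of 4.32. Fzd7 goes up along every line, Fzd2 lies under the dim limit on all arrays, and Fzd4, Fzd6 and Fzd8 spread more between experiments than between diets.

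Fzd4, the receptor for Norrin as well as for Wnts, varied far more between experiments than with diet. It measured 9.24, 7.28, 4.98 and 7.88 in lean pools and 9.01, 6.65, 6.32 and 6.44 in obese pools of experiments 1, 2, 3 and 4. The lean pools held both the highest and the lowest level, and the diets overlapped. Its difference was -0.23, -0.63, 1.34 and -1.44, and its mean of -0.24 ± 1.17 (SD, n = 4 experiments) was smaller than this spread. The endothelial mean differed by -0.36, -0.81, 1.97 and -1.67 in the same experiments, with the same signs. From highest to lowest, Fzd4 put the 8 arrays in the order of the endothelial mean except that the obese pools of experiments 3 and 4 changed places. With the endothelial mean as a covariate the difference of Fzd4 was -0.04 (SE 0.12), and with the mural mean -0.33 (SE 0.16). Tspan12, which joins Fzd4 in the Norrin receptor, went the same way, with 8.89, 6.73, 4.26 and 7.17 in lean and 8.73, 6.11, 6.02 and 5.77 in obese pools. Norrin itself (Ndp) was dim on all 8 arrays.

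The promoters of Fzd4 and Tspan12 are shown because both genes followed the endothelial mean from array to array. They are from RefSeq (GRCm38.p6, Fzd4 at chr7:89404116-89404415, plus strand, and Tspan12 at chr6:21852484-21852783, minus strand), each with 300 bases, with matches to the same 3 motifs in capitals.
Fzd4: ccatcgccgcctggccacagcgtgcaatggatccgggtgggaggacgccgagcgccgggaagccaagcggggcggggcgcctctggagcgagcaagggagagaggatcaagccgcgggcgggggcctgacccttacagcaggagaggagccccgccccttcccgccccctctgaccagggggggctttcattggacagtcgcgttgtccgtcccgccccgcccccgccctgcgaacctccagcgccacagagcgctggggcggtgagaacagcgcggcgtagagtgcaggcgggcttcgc
Tspan12: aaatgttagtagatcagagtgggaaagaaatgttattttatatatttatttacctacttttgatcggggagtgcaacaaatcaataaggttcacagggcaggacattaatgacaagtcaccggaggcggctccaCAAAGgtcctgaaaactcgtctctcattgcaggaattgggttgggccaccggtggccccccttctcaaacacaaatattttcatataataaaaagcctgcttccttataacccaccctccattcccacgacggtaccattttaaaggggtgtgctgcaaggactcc
Fzd4 had 0 matches to CTTTG in this window and Tspan12 had 1, on the reverse strand. Neither window held the AP-1 or ETS letters, and their GC content was 72.7% and 44.0%.

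Fzd6, a receptor of planar cell polarity, and Fzd8 also spread widely between experiments. Fzd6 measured 8.02, 5.91, 4.14 and 6.24 in lean and 7.17, 5.55, 5.16 and 4.83 in obese pools of experiments 1, 2, 3 and 4, and its diets overlapped. Its order over the 8 arrays was that of the endothelial mean and also that of the mural mean, without exception. The difference was -0.85, -0.36, 1.02 and -1.41, with a mean of -0.40 ± 1.04 (SD, n = 4 experiments), and -0.23 (SE 0.17) with the endothelial mean as a covariate. With the mural mean as a covariate it was -0.48 (SE 0.10). Fzd8 measured 7.02, 4.98, 3.58 and 5.38 in lean and 6.63, 5.38, 4.74 and 4.78 in obese pools, also with overlap. It differed by -0.39, 0.40, 1.16 and -0.60, with a mean of 0.14 ± 0.81 (SD, n = 4 experiments). In experiment 2 its sign went with the fibroblast mean (0.82) and not with the endothelial mean (-0.81). Both Fzd6 and Fzd8 were dim in the lean pool of experiment 3, the pool with the lowest endothelial, mural and fibroblast means. Over the 6 arrays of experiments 2, 3 and 4, which share experiments and the bead selection, Pearson's r with the endothelial mean was 0.987 for Fzd4, 0.972 for Fzd6 and 0.888 for Fzd8. Without the 2 arrays farthest from the median endothelial mean it was 0.913, 0.914 and 0.188, so that of Fzd8 rested on those arrays. With the mural mean r was 0.943 for Fzd4, 0.960 for Fzd6 and 0.956 for Fzd8. Without the same 2 arrays, the lean pools of experiments 3 and 4, it was 0.789, 0.989 and 0.641. With the fibroblast mean r was 0.914 for Fzd8, and 0.991 without these 2 arrays. The obese pool of experiment 2, which had the highest fibroblast mean, stayed in. With the macrophage mean r was -0.69 for Fzd4, -0.54 for Fzd6 and -0.71 for Fzd8. Without these 2 arrays it was 0.840, 0.992 and 0.485. The arrays left were the lean pool of experiment 2 and the obese pools of experiments 2, 3 and 4. For Fzd4 and Fzd6 they therefore do not separate the endothelial from the macrophage mean.

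Fzd5, a Wnt receptor of the same family, was less spread in obese than in lean pools. It measured 6.59, 5.50, 5.33 and 5.87 in lean and 6.18, 6.00, 5.75 and 5.87 in obese pools, which gave 5.82 ± 0.56 (SD, n = 4 pools) and 5.95 ± 0.18 (SD, n = 4 pools). Its difference was negative in experiment 1 (-0.41), 0.51 and 0.42 in experiments 2 and 3 and near 0 in experiment 4 (0.0011), and its mean of 0.13 was smaller than the SD of 0.42 between experiments.

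Of the co-receptors, Lrp5 had lower levels in the obese pool of every experiment. It measured 9.28, 7.90, 7.48 and 8.08 in lean and 8.99, 7.15, 6.96 and 6.92 in obese pools. Both arrays of experiment 1 stood above all others, so the diets overlapped, while within experiments 2, 3 and 4 every obese pool lay below every lean pool. The difference was -0.29, -0.75, -0.52 and -1.16, with a mean of -0.68 ± 0.37 (SD, n = 4 experiments), and -0.58 (SE 0.27) with the endothelial mean as a covariate. In experiment 3, where the endothelial mean was higher in the obese pool, Lrp5 was lower. Lrp6 ran the other way between experiments, with 7.96, 9.13, 9.09 and 8.30 in lean and 8.06, 8.64, 8.33 and 8.34 in obese pools. Its lowest levels were the 2 arrays of experiment 1, which also had the lowest macrophage means (7.72 and 8.93), and its highest were the lean pools of experiments 2 and 3, which had the highest macrophage means (10.73 and 10.95). Its difference was 0.10, -0.49, -0.76 and 0.04, with a mean of -0.28 ± 0.42 (SD, n = 4 experiments), and ran from -0.50 without the lean pool of experiment 1 to -0.11 without that of experiment 2. With the macrophage mean as a covariate it was -0.34 (SE 0.16).

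**Figure D2:**
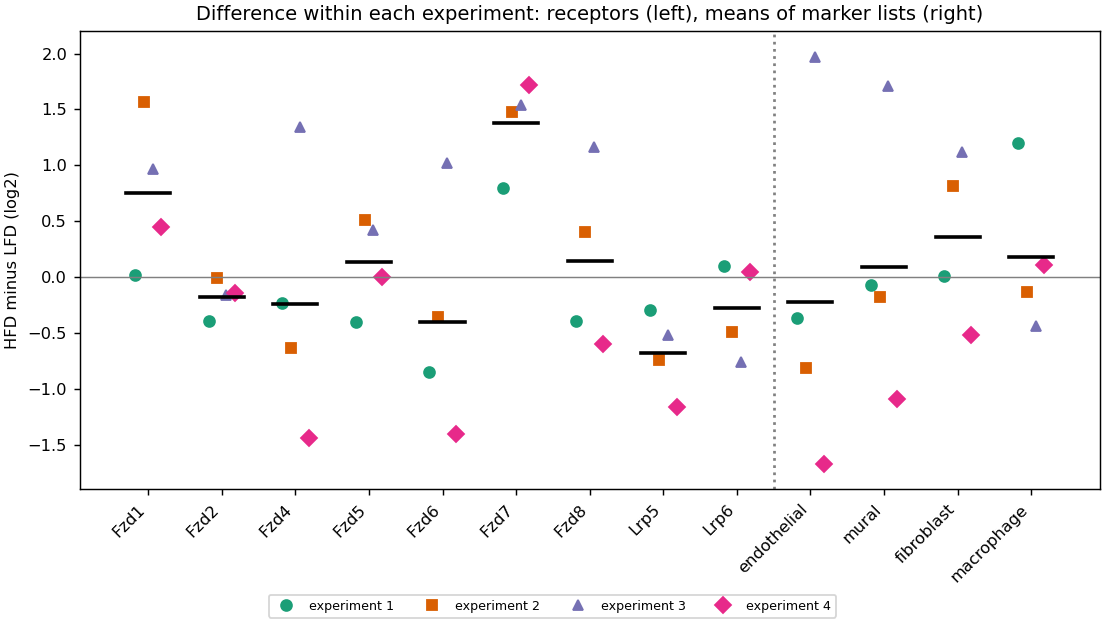
Difference in log2 level between obese and lean pools (vertical axis) within each of 4 experiments (points), with their mean as a bar, for the 9 members and for the means of 4 marker lists. Fzd7 lies between 0.80 and 1.72 in the 4 experiments, whereas Fzd4 and Fzd6 have the signs of the endothelial list in each experiment.

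Counted over the 9 members, Fzd1 and Fzd7 were higher in obese pools in all 4 experiments, as were 11% of all genes, and Fzd2 and Lrp5 were lower in all 4, as were 7.43% of all genes. The lower count was 4 without experiment 3, where Fzd4 and Fzd6 joined. After centring of the arrays by their medians the higher count was 1, since the difference of Fzd1 in experiment 1 was so small. The obese pools of 2 members lay above all lean pools (1.19% of all genes) and those of 0 members below (0.68% of all genes). These members were chosen from this contrast, and nothing is read from the counts. In limma 0% of all genes passed an adjusted p under 0.05 between the diets. The median difference over all genes was 0.0049, and over the 9 members it was -0.18.

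**Figure D3:**
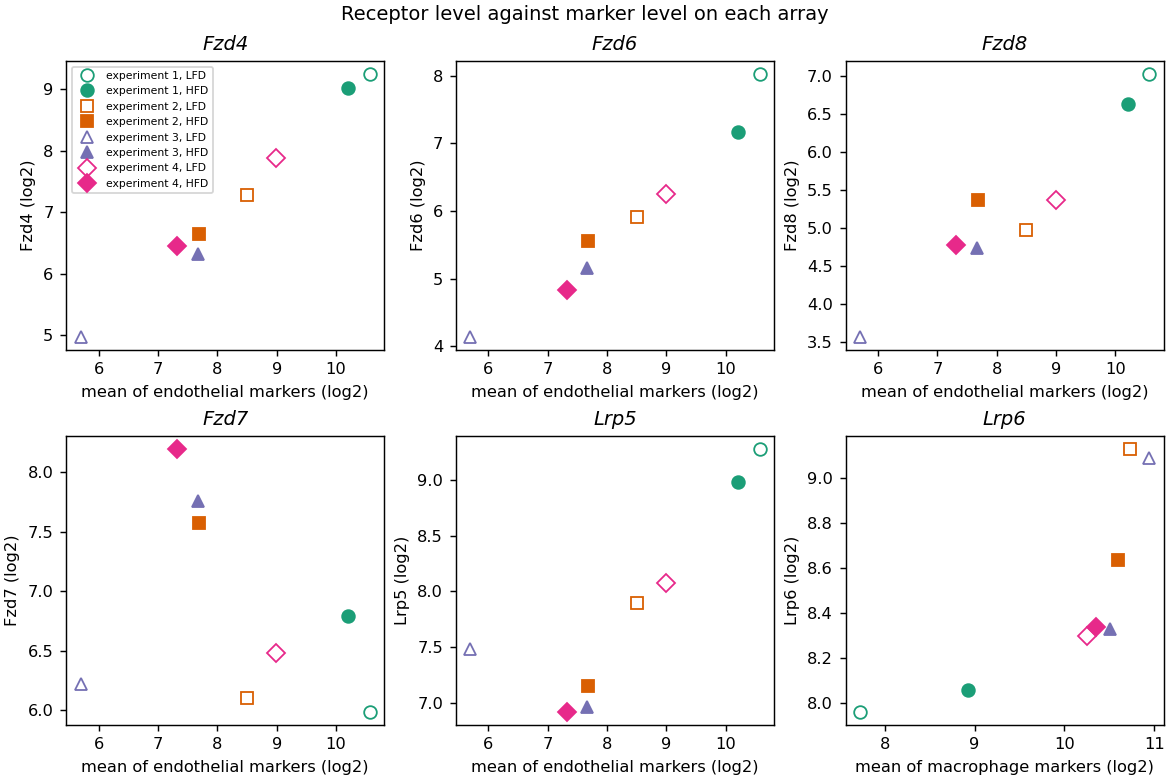
Level of a receptor (log2, vertical axis) against the mean of a marker list (log2, horizontal axis) on each of 8 arrays, open for LFD and filled for HFD. Fzd4 and Fzd6 go up with the endothelial mean, Fzd8 does so less closely, Fzd7 is higher on every HFD array than on every LFD array, and Lrp6 goes up with the macrophage mean. The axes have different ranges and do not start at 0.

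Levels between experiments were not used to choose the members and were tested. In limma's F test of experiment, with diet in the model, Lrp5 passed (adjusted p = 0.0304), and the other 8 members did not. The adjusted p was 0.0558 for Fzd8, 0.0704 for Fzd4, 0.0765 for Fzd6, 0.154 for Fzd7 and 0.168 for Lrp6, and was 0.833 for Fzd1. Of all genes, 8.96% passed, which is near the share of 1 in 9 members. Lrp5 was 1.72 higher on the arrays of experiment 1 than on the others (9.13 against 7.42), Fzd4 was 2.54 higher, Fzd6 2.29 and Fzd8 2.02, while Fzd7 (-0.67) and Lrp6 (-0.63) were lower there. The call for Lrp5 was lost without any single array of experiments 1, 2 or 4 (adjusted p of 0.0756 to 0.23) and held without the obese or the lean array of experiment 3 (0.0225 and 0.0335), where Fzd4 (0.0127 and 0.0357), Fzd6 (0.0127 and 0.0325) and Fzd8 (0.0164 and 0.0406) passed as well. Without both arrays of experiment 1, 0 members and 0 genes passed in limma, with an adjusted p of at least 0.719 for the members. The part of endothelial and macrophage RNA in these differences between experiments was not tested, since marker covariates were used only for the difference between diets.

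The difference between the 60% and the 45% fat HFD was also tested, as the change in the diet effect. For Fzd7 the diet difference was 1.59 at 60% and 1.17 at 45% fat, a gap of 0.42 (SE 0.54). For Fzd4 it was -1.04 and 0.56, a gap of -1.59 (SE 2.16), since the 2 experiments at 45% went opposite ways. Lrp5 had -0.95 and -0.41, a gap of -0.55 (SE 1.16), and Fzd1 had 1.01 and 0.49, a gap of 0.51 (SE 0.52). None of the 9 members passed in limma (adjusted p = 1.00 for each), nor did any gene (0% of all genes), with 225 genes at an unadjusted p under 0.05. These SEs are from the fit without the block, so they include the spread of levels between experiments. With experiment as a block 0 genes passed as well. The unadjusted limma p with the block was 0.052 for Fzd4 and 0.063 for Lrp5 (adjusted p = 0.951 for each). Fat content cannot be told apart from experiment or from diet length, since both 60% diets (15 and 10 weeks) were shorter than the 45% diets (16 weeks each).

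For each member, the genes most like it over the 8 arrays were picked by Pearson's r over these arrays, among 10636 other genes with a mean above the dim limit (10637 for Fzd2). The similarity is given as Pearson's r over the 6 arrays of experiments 2, 3 and 4, since experiment 1 stood apart, and, being the highest of many and from arrays that share experiments, it is a description. Fzd7 was most like Cpeb4, an RNA-binding protein (r = 0.995), Tgfbr1, a TGF-beta receptor (r = 0.990), and Fhdc1 (r = 0.969). Cpeb4 measured 7.87, 7.97, 8.15 and 8.27 in lean and 8.71, 9.26, 9.21 and 9.68 in obese pools, and Tgfbr1 differed by 0.88 and was higher in all 4 experiments. Fzd4 was most like Galnt15 (r = 0.994), Mmrn2, an endothelial marker of the list used here (r = 0.990), and Enpp4 (r = 0.996). Fzd6 was most like Hoxd8, Il6st and Bace2 (r = 0.997, 0.990 and 0.986), and Fzd8 like Npdc1, Ano1 and Ehd3 (r = 0.989, 0.984 and 0.986). Fzd1 was most like Enc1, the protease inhibitor Timp1 and the collagen receptor Mrc2 (r = 0.964, 0.936 and 0.928). Lrp5 was most like Maml2, a Notch coactivator, Ptprm and Mcc (r = 0.977, 0.966 and 0.969), and Lrp6 like Eps15, an endocytosis protein, Tgfbrap1 and Rnf130 (r = 0.996, 0.980 and 0.998). For Fzd5 these genes were 1810055G02Rik, Shoc2 and Cdc42ep4 (r = 0.960, 0.965 and 0.958). For Fzd2, itself dim on every array, they were Jmy, Spock2 and Kcnn3 (r = 0.933, 0.975 and 0.922).

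Around the receptors, 107 of 113 other listed genes of Wnt signalling were measured, and 45 of them were dim on all 8 arrays. Among the ligands 16 of 19 Wnts were dim on all 8 arrays, including Wnt5a (3.00 to 4.00), and the other 3 (Wnt9a, Wnt9b and Wnt10a) were dim on some. Of the other Frizzled-class receptors, Fzd3, Fzd9 and Fzd10 were dim on all arrays. Of 107 genes, 1 was higher and 4 were lower at an unadjusted p under 0.05 in limma, against 3.3% higher and 1.51% lower of all genes, and 0 passed an adjusted p under 0.05. With experiment as a block 3 were higher and 6 lower, against 7.95% and 4.16% of all genes, and again 0 passed after adjustment. The median difference of the 107 genes was -0.05.

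The gene that was higher was Cd44, the hyaluronan receptor and a Wnt target that other pathways also induce. It measured 6.71, 7.41, 8.74 and 8.58 in lean and 8.31, 9.20, 9.29 and 9.68 in obese pools of experiments 1, 2, 3 and 4, so that 1 obese pool lay within the range of the lean pools. Its difference was 1.26 (SE 0.50, limma adjusted p = 0.982), and it was higher in all 4 experiments. With experiment as a block its limma p was 0.0015 unadjusted and 0.121 adjusted. Of the other measured targets, Axin2 and Lef1, which report beta-catenin signalling in many tissues, were dim on every array and differed by -0.04 (SE 0.23) and -0.21 (SE 0.12). Myc, another target of many pathways, differed by 0.59 (SE 0.34). It was higher in the obese pool of each experiment, by only 0.01 in experiment 1.

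Among the 4 lower genes was Smo, the Frizzled-class receptor of Hedgehog signalling, with 6.64, 6.40, 6.70 and 6.39 in lean and 6.37, 6.26, 5.90 and 5.79 in obese pools. Every obese pool of Smo lay below every lean pool, with a difference of -0.45 (SE 0.15, limma adjusted p = 0.982, and 0.288 with experiment as a block). Porcn, the acyltransferase that makes Wnts fit for secretion, differed by -0.33 (SE 0.14), and Bcl9, a coactivator of beta-catenin, by -0.25 (SE 0.09). Each was lower in all 4 experiments, as were 7.43% of all genes. Porcn differed by only -0.01 in experiment 2 and by -0.73 in experiment 3. The fourth, Shisa3, which holds Frizzleds back in the cell, was dim on all arrays and did not pass with experiment as a block (limma unadjusted p = 0.0699). With the block Myc and Pygo1 joined Cd44 among the higher genes, and Wnt4, Rspo1 and Axin1 joined Smo, Porcn and Bcl9 among the lower. Of these, Pygo1 and Wnt4 were dim on all arrays. Wls, the carrier of Wnts to the surface, differed by 0.14 (SE 0.11). In the core of the pathway Ctnnb1, beta-catenin itself, measured 9.46 ± 0.62 (SD, n = 4 pools) in lean and 9.44 ± 0.49 (SD, n = 4 pools) in obese pools. Gsk3b, the kinase that marks beta-catenin for degradation, differed by 0.12 (SE 0.06), with every obese pool above every lean pool. Of the secreted inhibitors, Sfrp1, which binds Wnts, differed by -0.59 (SE 0.64), with levels between 4.68 and 7.10.

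**Figure D4:**
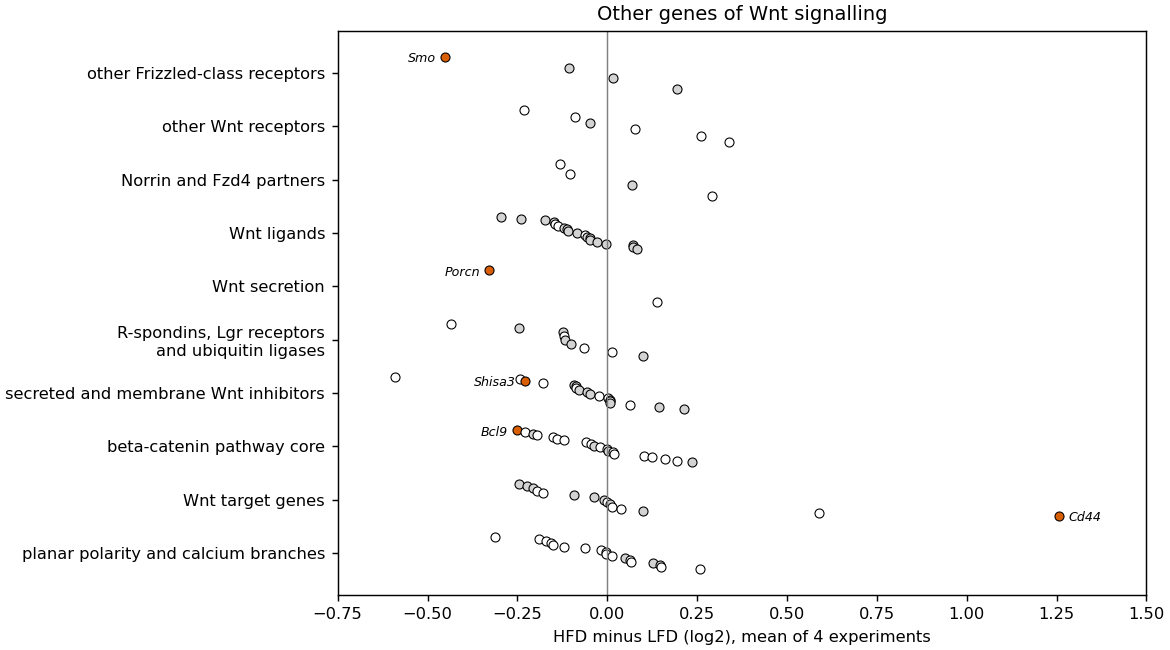
Difference in log2 level between obese and lean pools (horizontal axis) for the listed genes of Wnt signalling outside the 9 members, by group (vertical axis), 1 point a gene. Orange marks genes at an unadjusted p under 0.05 in limma (Smo, Porcn, Shisa3, Bcl9 and Cd44) and grey marks other genes that were dim on all 8 arrays.

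Between experiments, 18 of the 107 pathway genes passed limma's F test, against 8.96% of all genes. Without any single array of experiments 1, 2 or 4 the count over all genes was 0, so these calls were lost. In 15 of the 18 both arrays of experiment 1 lay above all others, among them the atypical Wnt receptor Ryk (7.44 against 6.24), Adgra2 (6.65 against 4.97) and Reck (5.84 against 4.74), which form a co-receptor for Wnt7 ligands, and the polarity genes Prickle1 (6.41 against 4.61) and Daam2 (7.41 against 5.16). In 2, Axin1, a scaffold of the complex that degrades beta-catenin (5.67 against 6.26), and Nfatc2 (5.98 against 7.74), both lay below all others, and in Sfrp4 they overlapped with the others. Without experiment 1, 0 genes passed this test, so the place of its arrays is tied to how the 18 genes were picked. The share of such genes among all genes that passed was not counted. Both arrays of experiment 1 were also lowest for Lrp6 and for the macrophage mean.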

How the data were processed

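ATMs were profiled in 4 experiments, each with 1 HFD and 1 LFD array of pooled mice, on Affymetrix whole-transcript mouse arrays. The values used are log2 levels as deposited, and the submitters' processing notes list RMA (background correction, quantile normalisation and probe summary). The version and genome build are not given in the sources used here. RMA sets dim signals close together, so differences of dim genes can be understated. The array medians ran from 4.25 to 4.39. Of 35556 features, 21218 carried 1 gene symbol in the platform's annotation table, and these gave 18820 genes, each by its probe set with the highest mean. Each of the 9 members had 1 probe set. Features with several symbols (1881) or no annotation (12457) were not used.

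HFD and LFD arrays were compared across all genes with limma 3.58.1 (lmFit and eBayes, R 4.3.3) and Benjamini-Hochberg adjustment, at a threshold of 0.05. Experiments were compared by an F test with diet in the model, and the 2 fat contents by an interaction contrast. The fits were tested on simulated data with known changes and independent noise. Those data lacked the spread between experiments of the real arrays, so they do not show how the fits behave with it. The labels number the experiments, and this number pairs an HFD with an LFD array. Deviations from the mean of their diet correlated across genes within a pair (0.889, 0.357, 0.652 and 0.186). Arrays of different experiments were not compared in this way, so these values do not test the pairing. A blocked value is given where it changes a count and for a few named genes. Diet SEs and p-values are from the fit without the block unless the block is named. Pools of different experiments are the replicates. The members, gene lists and tests were chosen with earlier results of these data known. Named are the 9 members, pathway genes at an unadjusted p under 0.05 (up to 4 a list) with up to 2 well-known others a list, the 3 genes most like a member, and leading markers. Myc, Gsk3b, the genes called only with the block and the pathway genes of the F test were chosen after their values were seen. Sequences and motif shares came from RefSeq promoters. Alternatives were the block, array centring, leaving out dim genes, arrays or experiments, probe set averaging, another prior, the methods' t-test and marker covariates.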

Additional observations from a re-analysis of the deposited data

Results flagged for a closer look

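In 2 of the 18 groups of 4 pools tested, 1 pool stood apart from the other 3 by more than Dixon's critical value allows, and chance alone does so in about 1 group in 20. Both were the obese pool of experiment 1, with a level of 9.01 for Fzd4 and of 8.99 for Lrp5. On this array Adgre1 stood at 8.58 and the endothelial mean at 10.21.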

How the results depend on the processing

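The count of genes past an adjusted p under 0.05 between the diets was 0 under all 19 alternatives, and that of the fat contents was 0 under all 5, the replicate block included. Between 0 and 2737 genes passed the F test of experiment with 1 array left out, 0 without experiment 1 (both arrays, chosen after seeing the data) and 2579 with centred arrays. Of the members 0 to 4 passed it with arrays left out, 4 with centred arrays and 2 without dim genes. With experiment as a fixed replicate block 3 pathway genes were higher, and as a random block 5 were higher and 7 lower. Without dim genes 2 were lower, and the methods' t-test called 2 higher. With arrays or experiments left out the higher count ran from 0 to 4 and the lower from 0 to 5. Members higher in all experiments numbered 1 with centred arrays and 2 to 3 with an experiment left out, and members lower in all numbered 1 without dim genes and 2 to 4 with an experiment left out. The cause of these shifts was not tested. With arrays or experiments left out, the difference of Fzd7 ran from 1.18 to 1.65, of Fzd1 from 0.48 to 0.99 and of Lrp5 from -1.17 to -0.32 (-1.17 without the obese pool of experiment 1), of Fzd2 from -0.26 to -0.06 and of Lrp6 from -0.50 to -0.11, while those of Fzd4 (-1.03 to 0.39), Fzd5 (-0.03 to 0.39), Fzd6 (-1.05 to 0.25) and Fzd8 (-0.41 to 0.74) took both signs. Marker covariates, chosen after seeing the data, kept the direction of every member but Fzd8, which was -0.21 with the fibroblast mean. Dim signal limits Fzd2 and most ligands.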
